A study of Mus musculus with 18 samples.

Results

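The 39 genes described here are the machinery of the G2 phase and of mitosis: the regulators that push a cell from DNA replication into division and the proteins that build the spindle, hold and check the chromosomes and cut the daughter cells apart. They were taken by symbol from a list whose rule uses no measured value, although the list was drawn up with earlier results of these data known, and all 39 were found among the 55183 genes measured in cells and among the 19464 measured in whole brain. The study asked by RNA sequencing what CT-179, a compound used here for OLIG2 inhibition (OLIG2 is a transcription factor of glial and neural progenitors), does to a mouse medulloblastoma line and to the brain of tumour-prone mice. The cells were the line PTCP53 304, listed as SHH medulloblastoma (a cerebellar tumour driven by Sonic hedgehog signalling) with the genotype Ptch1+/-; Trp53-/-, so vehicle and treated cells share the loss of Trp53 and the Ptch1 allele. They were kept in vehicle or CT-179 for 24 h (day 1) or 144 h (day 6), with 3 libraries in each of the 4 groups. The brains came from mice listed as Ptch1+/-; IR, where IR is not explained, dosed with vehicle or CT-179 from postnatal day 3 to day 15 and collected whole on day 15, with 3 libraries in each of the 2 groups.

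What limits these groups as models is that all cell libraries come from 1 line, that there is no sample from before treatment, and that a whole brain mixes dividing precursors with many resting cells. Whether the replicates of a group came from different cultures or mice is not stated, and the p-values therefore measure only the spread between these libraries. The brain titles labelled CT-179 also hold the word vehicle, so every brain direction below rests on the treatment label. Levels are FPKM, fragments per kilobase of transcript scaled to the mapped fragments of the library, and because they are scaled by transcript length they can be compared between genes. With the exonic lengths used here the implied reads sum to 1.23 to 1.40 times the total that these FPKM are scaled to, and which length or total the authors used is not given, so a comparison between genes holds only as far as their lengths do. The steps between low FPKM values imply 2.95e+07 to 7.09e+07 reads per cell library and 1.76e+07 to 6.36e+07 reads per brain library. In vehicle cells at 24 h Olig1 read 613 to 698 FPKM and Olig2 366 to 395, and the 12 granule precursor markers summed to 42.2 to 44.9 FPKM. Of those 12, Zic1, Zic2, Meis1, Pax6, Gli1 and Gli2 were above 1 FPKM, with Zic1 the highest at 15.6 to 16.3, and the other 6 were below it, with Atoh1, Barhl1 and Neurod1 at 0.0329 or less in every one of those libraries. Gli1, a target of hedgehog signalling, read 2.34 to 2.6 FPKM there and 19.4 to 21.1 at 144 h. CT-179 replicate 2 at 144 h was unlike its group: it correlated with the other two CT-179 libraries of that time at 0.941 and 0.943, while every other pair of cell libraries within a group reached at least 0.996. In brain, Lars2 and Gm15564 took 12.5% of the implied reads of vehicle replicate 2 and 0.0638 to 0.0731% of those of each other library. Counts that rest on either library are therefore given with and without it.

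In a dividing cell the transcription factor FOXM1 and the MYB relative MYBL2, together with the MuvB complex, switch on this set of genes late in the cycle. Their products then drive mitosis: cyclin B with CDK1 starts it, Polo and Aurora kinases build the spindle, the spindle checkpoint holds back anaphase until each chromosome is attached, and the anaphase-promoting complex then destroys cyclin B and securin. The shared expression is read in part through the cell cycle genes homology region (CHR), usually TTTGAA or TTTAAA, and through CCAAT boxes bound by NF-Y. In the cerebellum the same genes mark dividing granule cell precursors, the cells from which hedgehog medulloblastoma arises.

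Promoters are shown first, because they are what these genes are known to share and because the list was not chosen by them. RefSeq promoters (build GRCm38.p6, 250 bases before to 50 bases after the start, 300 in all) matched 32 of the 39 genes by symbol, as 34 promoters. Foxm1, Ccna2, Aurkb, Cdc25c, Incenp, Kif20a and Tpx2 had no match. The 5 first sequences below are those with both motifs and the largest fall from 24 h to 144 h in vehicle cells, and Pttg1, the gene that did not fall, was added after its values were seen. Each is printed 5′ to 3′ on the strand of its gene, and capitals mark every match on either strand to the CHR motifs just given or to CCAAT, so that a match on the reverse strand reads TTCAAA, in place of the first CHR motif, or ATTGG.
Ccnb1: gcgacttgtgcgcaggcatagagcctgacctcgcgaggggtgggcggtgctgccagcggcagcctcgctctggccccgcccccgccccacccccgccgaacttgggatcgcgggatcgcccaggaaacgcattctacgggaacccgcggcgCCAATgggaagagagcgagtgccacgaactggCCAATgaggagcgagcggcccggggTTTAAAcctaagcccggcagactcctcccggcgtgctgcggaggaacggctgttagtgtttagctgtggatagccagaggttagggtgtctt
Plk1: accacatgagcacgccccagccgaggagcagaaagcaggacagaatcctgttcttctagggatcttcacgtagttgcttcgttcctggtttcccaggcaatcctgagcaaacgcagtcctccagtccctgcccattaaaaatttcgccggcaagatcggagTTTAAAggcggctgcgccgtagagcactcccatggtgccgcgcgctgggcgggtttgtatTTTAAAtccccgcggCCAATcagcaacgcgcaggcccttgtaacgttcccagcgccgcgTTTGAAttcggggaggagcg
Mki67: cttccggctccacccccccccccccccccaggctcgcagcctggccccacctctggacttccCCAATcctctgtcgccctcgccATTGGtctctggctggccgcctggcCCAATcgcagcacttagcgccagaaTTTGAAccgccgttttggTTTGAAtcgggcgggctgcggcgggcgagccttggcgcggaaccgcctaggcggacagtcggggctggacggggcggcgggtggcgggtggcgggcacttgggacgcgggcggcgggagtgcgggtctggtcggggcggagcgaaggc
Ccnb2: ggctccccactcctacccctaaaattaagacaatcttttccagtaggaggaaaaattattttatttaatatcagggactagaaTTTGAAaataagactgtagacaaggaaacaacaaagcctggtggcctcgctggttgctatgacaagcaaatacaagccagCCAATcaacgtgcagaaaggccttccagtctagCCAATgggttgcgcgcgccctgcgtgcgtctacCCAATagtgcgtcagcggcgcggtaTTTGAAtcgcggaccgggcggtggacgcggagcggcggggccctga
Cdc20: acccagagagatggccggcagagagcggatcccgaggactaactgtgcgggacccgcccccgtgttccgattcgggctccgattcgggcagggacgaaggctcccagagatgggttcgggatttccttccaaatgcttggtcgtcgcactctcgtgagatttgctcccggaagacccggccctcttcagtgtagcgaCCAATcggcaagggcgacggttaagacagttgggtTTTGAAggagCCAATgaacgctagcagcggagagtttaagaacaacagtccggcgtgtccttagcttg
Pttg1: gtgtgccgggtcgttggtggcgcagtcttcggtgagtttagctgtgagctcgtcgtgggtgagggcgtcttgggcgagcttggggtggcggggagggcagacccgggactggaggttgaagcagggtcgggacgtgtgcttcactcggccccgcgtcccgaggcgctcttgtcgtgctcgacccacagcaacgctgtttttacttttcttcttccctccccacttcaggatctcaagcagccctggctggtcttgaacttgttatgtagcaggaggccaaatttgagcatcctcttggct
The first 5 lie at chr13:100786437-100786736 on the minus strand (Ccnb1), chr7:122159185-122159484 on the plus strand (Plk1), chr7:135716330-135716629 on the minus strand (Mki67), chr9:70421505-70421804 on the minus strand (Ccnb2) and chr4:118437294-118437593 on the minus strand (Cdc20), and Pttg1 at chr11:43425932-43426231 on the minus strand. On both strands, TTTGAA or TTTAAA was found in 79.4% of the 34 promoters of the set, in 53.7% of 95 promoters of other G2/M genes, in 23.9% of 46 promoters of G1/S and replication genes and in 27.6% of all 32851 promoters. CCAAT was found in 73.5% of the set, 64.2% of the other G2/M genes, 58.7% of the G1/S genes and 37.4% of all promoters. Both together were found in 67.6%, 38.9%, 17.4% and 10.7% respectively. The E2F motifs TTCCCGCC, TTTCCCGC and TTTGGCGC overlap one another in part. They were found in 0 of the 34 promoters of the set, 14.7% of the other G2/M promoters, 41.3% of the G1/S promoters and 3.21% of all. The 5 genes without a match to any of these letters in this window were Nuf2, Mybl2, Nusap1, Mad2l1 and Pttg1. The Pttg1 window lies wholly inside the span of the gene in the deposited coordinates (chr11:43420250-43426251), as do those of Cdca8 and Kif2c in theirs. Sequence before the 5′ end that those coordinates give was therefore not searched for these genes, so the missing match in Pttg1 covers only the window printed. The windows of Mad2l1 (chr6:66534971-66535270) and Mybl2 (chr2:163054385-163054684) lie wholly before the 5′ ends so given, at 66535390 and 163054687. Their missing matches likewise cover only those windows. A match describes letters in a window and is neither a shown binding site nor a cause of any value below.

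At 24 h in vehicle the set was strongly expressed, with a median over genes of 39.6 FPKM. The lowest gene was Pttg1 (securin, the inhibitor of separase) at 9.67 ± 1.21 FPKM (SD, n = 3), and the highest was Cdc20, the activator of the anaphase-promoting complex, at 119 ± 6.31. Ccna2 (cyclin A2) followed at 110 ± 4.81, which did not differ from Cdc20 beyond their spread. At 144 h the median was 3.44 FPKM, Pttg1 had become the highest at 11.9 ± 0.488, and Ndc80, part of the outer kinetochore complex that grips microtubules, was the lowest at 1.05 ± 0.159. Summed over the 39 genes, the vehicle libraries held 1783, 1780 and 1814 FPKM at 24 h and 158, 155 and 166 at 144 h. The groups did not come near each other. In bulk RNA, fewer cells in mitosis and less of each RNA per cell cannot be told apart.

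**Figure D1:**
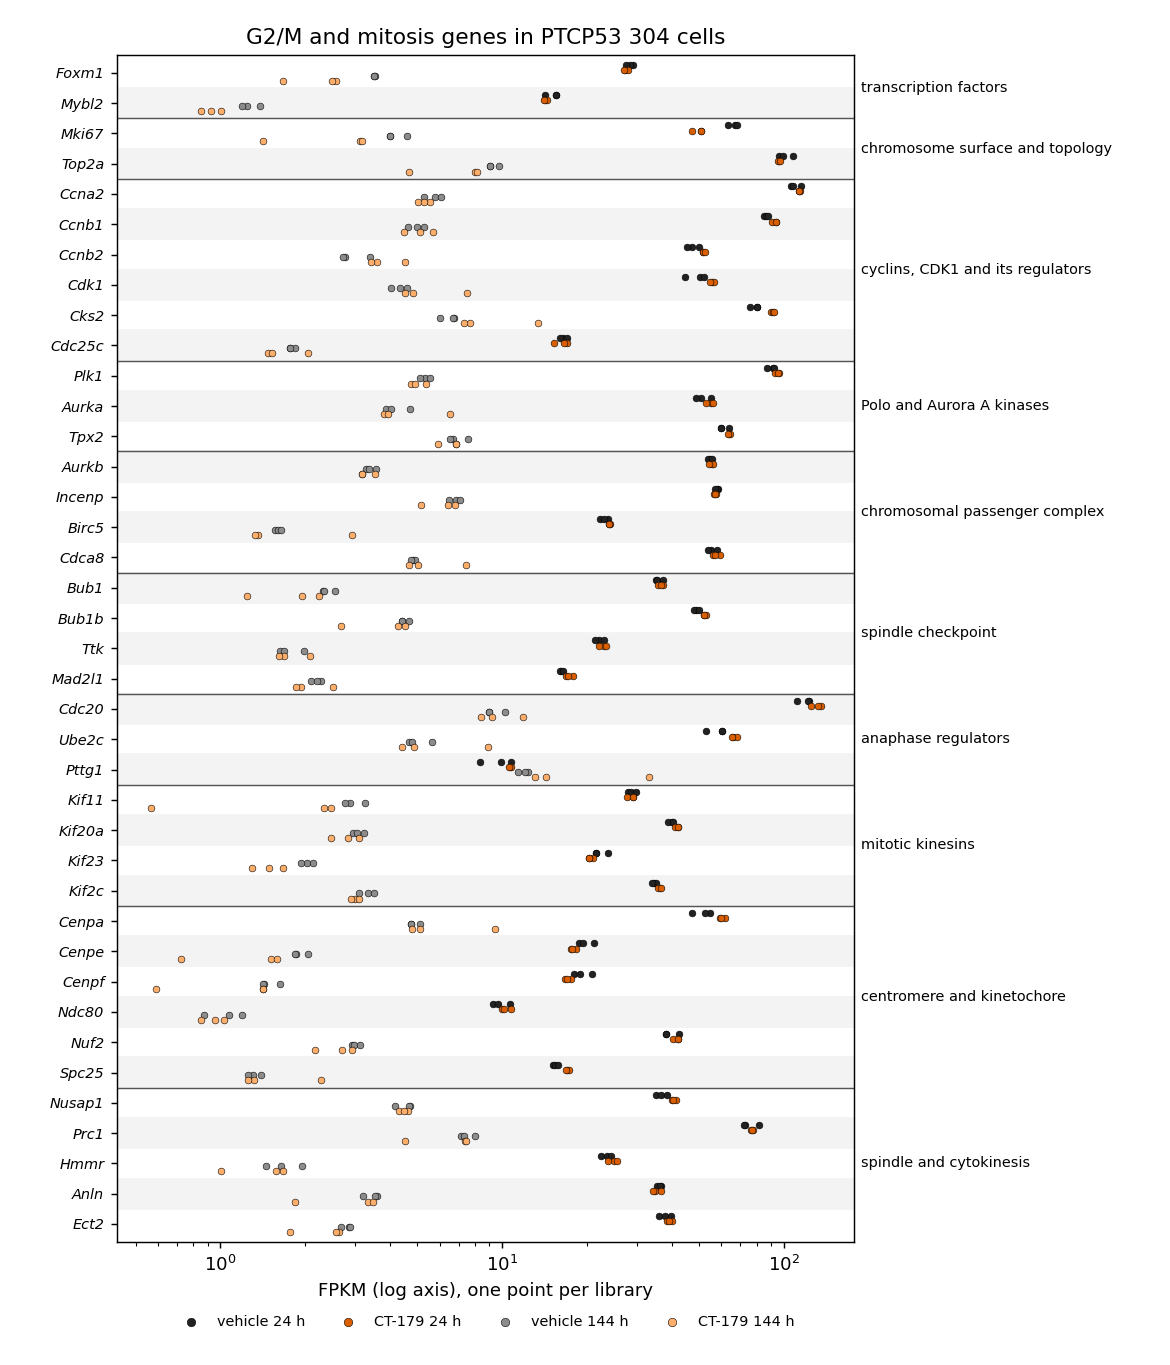
FPKM (x axis, log scale) of each of the 39 genes (y axis, grouped by role) in the 12 cell libraries, 1 point per library, coloured by treatment and time. For 38 genes the points at 144 h lie well to the left of those at 24 h, and for Pttg1 they lie to the right.

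From 24 h to 144 h in vehicle, 38 of the 39 genes fell, 0 rose and Pttg1 did not pass the test (limma with Benjamini-Hochberg adjustment over the 12510 genes tested, threshold 0.05, log2 fold changes on log2(FPKM + 1)). Of all genes tested 66.5% were called, 34.1% higher and 32.4% lower, so a fall by itself was common. The median log2 fold change was -3.18 over the 39 genes and 0.01 over all genes. In CT-179 cells 38 fell and 1, Pttg1, rose, with a median of -3.22 and a background of 65.3% called, 33.2% higher and 32.1% lower. Without CT-179 replicate 2 at 144 h, 38 fell and Pttg1 rose in both treatments. In that fit 43.4% of all genes were lower and 44.2% higher in vehicle, and 41.7% lower and 43.9% higher in CT-179. The 38 genes that fell kept between 5.21% and 13.5% of their 24 h level in vehicle. In both treatments those 38 also had every 144 h library below every 24 h library, as did 42.9% of all genes tested in vehicle and 34.1% in CT-179.

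By role, the 6 cyclins, CDK1 and CDK1 regulators had the largest median fall in vehicle on the log2(FPKM + 1) scale, -3.52. The role of chromosome surface and topology (Mki67 and Top2a) was almost level with it, at -3.51. The transcription factors had the smallest median fall, -2.76 over 2 genes. Ccna2 read 106, 108 and 115 FPKM in the vehicle libraries at 24 h and 5.79, 5.29 and 6.05 at 144 h, a 19.2-fold difference in mean level (log2 fold change -4.04). Ccnb1, the cyclin B1 that CDK1 needs to start mitosis, went from 84.7, 86.1 and 87.7 to 4.98, 4.65 and 5.26, 17.4-fold. Plk1, the Polo kinase of spindle poles and kinetochores, went from 91.9, 87.1 and 92.0 to 5.31, 5.11 and 5.54, 17.0-fold. On the log2(FPKM + 1) scale those 3 genes, with Mki67 and Aurkb, were the largest falls of the set in vehicle. By mean level Ccnb2 (16.1-fold) and Aurkb (16.0-fold) followed the 3, ahead of Mki67. In each of these genes the 3 libraries of a group lay close together next to the distance between the times. Mki67, the Ki-67 coat protein of mitotic chromosomes that pathologists count as a proliferation marker, fell 15.8-fold and Top2a, the topoisomerase that untangles them, 10.9-fold. Cdk1 itself fell 11.3-fold, from 50.3, 51.9 and 44.6 to 4.32, 4.04 and 4.58.

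On the log2(FPKM + 1) scale, which shrinks the change of low genes, the smallest falls were those of Foxm1 (-2.70), the phosphatase gene Cdc25c (-2.65), the checkpoint gene Mad2l1 (-2.43) and Ndc80 (-2.41). By mean level they were those of Mad2l1 (7.39-fold), Foxm1 (8.06-fold), Nusap1 (8.13-fold) and Incenp (8.48-fold). Foxm1 thus kept 12.4% of its level where Ccna2 kept 5.21%. Pttg1 was the exception. It read 9.89, 10.7 and 8.36 FPKM in vehicle at 24 h and 12.3, 11.4 and 12.1 at 144 h, and in CT-179 10.6, 10.7 and 10.6 at 24 h and 14.3, 33.3 and 13.1 at 144 h. Its 144 h libraries were all above its 24 h libraries in both treatments, as were those of 44.6% of all genes tested in vehicle and 33.4% in CT-179. The log2 fold change was 0.28 (SE 0.27, limma adjusted p = 0.37) in vehicle and 0.74 (adjusted p = 0.032) in CT-179. Without CT-179 replicate 2 at 144 h the vehicle value stayed at 0.28 with an adjusted p of 0.0021, and the CT-179 value was 0.33 (adjusted p = 0.0016), in a fit that called 87.7% of all genes over time in vehicle and 85.6% in CT-179. The CT-179 call was lost when any 1 of the CT-179 libraries at 24 h was left out (adjusted p 0.068 to 0.071). Cdc20 and Ube2c, which act on the same anaphase step, had log2 fold changes of -3.53 and -3.28 in vehicle.

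Among 101 other tested genes of G2 and mitosis, 95 fell in vehicle, with a median of -2.36, and the falls with the smallest p were those of the kinase Melk, the condensin subunit Ncaph, Gtse1 and the centralspindlin gene Racgap1. Lin52, a subunit of the MuvB complex itself, rose (log2 fold change 0.65, limma adjusted p = 5.4e-05), and Lin37 of the same complex did not pass (0.15, adjusted p = 0.43). All 50 tested G1/S and replication genes fell, with a median of -2.62, so the drop extended to genes of the earlier phases of the cycle. Of 7 CDK inhibitor genes 4 rose and 2 fell, where 34.1% of all genes rose. All 9 tested astrocyte markers and 6 of 7 tested neuronal markers were higher at 144 h in vehicle, the summed astrocyte level being 504 to 534 FPKM per library at 24 h and 1205 to 1224 at 144 h. Gfap, the filament gene of astrocytes, read 0.357 to 0.448 FPKM at 24 h and 85.9 to 98.4 at 144 h. Other marker lists changed in vehicle as well. The summed level went from 42.2 to 44.9 FPKM to 65.2 to 66.3 for granule precursor markers and from 9.47 to 9.64 to 55.9 to 59.8 for mature oligodendrocyte markers. For microglia markers, 8 of 9 under 1 FPKM in every library, it went from 15.0 to 15.9 to 65.4 to 71.9. Oligodendrocyte precursor markers fell in sum, from 1024 to 1140 to 721 to 745, and rose in median, from 7.24 to 7.70 to 28.9 to 30.3. The part of cell type in the time difference was not tested. Across the 39 genes, the log2 fold change over time in vehicle had a Spearman rho of 0.33 with exonic length, given as a description. It was 0.42 without Pttg1, and 0.05 over 11361 protein-coding genes.

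The fall over time can be set beside the promoter matches as a description. The median log2 fold change over time in vehicle was -3.23 over the 21 genes with both a CHR match and a CCAAT match and -3.04 over the 11 without both. Those 11 include Pttg1, Kif2c, Mad2l1 and Mybl2, whose windows did not reach the 5′ end in the deposited coordinates. Of the 5 genes with no match, Nuf2 fell by 3.34 on the log2 scale and Pttg1, whose window lay inside the span of the gene, did not fall.

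CT-179 at 24 h left the set close to the vehicle level. With all 12 cell libraries fitted together, 0 of the 39 genes passed, where 0.264% of all genes did. 2 of the 39 and 640 of all 12510 had an unadjusted p under 0.05. The median log2 fold change was 0.06, with 28 genes above 0 and 11 below, against -0.01 over all genes, and under scaling to TPM, in which the values of every library are set to the same sum, the median was 0.0050. The summed level was 1861, 1861 and 1862 FPKM with CT-179 against the 1783, 1780 and 1814 of vehicle. The separation was complete but small.

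Mki67 differed most. It read 63.4, 67.2 and 68.2 FPKM in vehicle at 24 h and 50.9, 47.3 and 50.7 with CT-179, and the groups did not overlap. The log2 fold change was -0.41 with an SE of 0.17 in the fit of 12 libraries (limma adjusted p = 0.89) and an SE of 0.05 without CT-179 replicate 2 at 144 h (adjusted p = 3.6e-04). That library takes no part in the 24 h means and enters through the shared estimate of spread. Top2a, at 96.3, 99.5 and 108 in vehicle and 96.1, 95.2 and 96.5 with CT-179, overlapped between the groups (log2 fold change -0.08). Foxm1 read 29.1, 28.4 and 27.5 in vehicle and 27.2, 28.0 and 27.1 with CT-179 (-0.04), again overlapping, as did Mybl2 at 15.5, 15.6 and 14.2 against 14.2, 14.4 and 14.1 (-0.08).

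Without that library 7 genes were higher and 3 lower at 24 h, against 22.2% of all genes called, 8.08% higher and 14.1% lower. The higher ones were Cks2, Cenpa, Ube2c, Cdk1, Nusap1, Spc25 and Bub1b, and the lower ones Mki67, Cenpf and Cenpe. Cks2, the small subunit that docks CDK1 on its substrates, read 80.1, 80.0 and 75.8 in vehicle and 89.7, 91.7 and 92.4 with CT-179 (log2 fold change 0.21, limma adjusted p = 0.0037). Cenpa, the histone that marks the centromere, read 54.8, 52.3 and 47.3 against 59.6, 61.7 and 60.0 (0.23, adjusted p = 0.0074). Ube2c, the ubiquitin-conjugating enzyme of the anaphase-promoting complex, read 60.1, 60.2 and 52.7 against 66.2, 68.2 and 65.7 (0.21, adjusted p = 0.040). For these 3 every CT-179 library stood above every vehicle library. The kinetochore motor and matrix genes went the other way, Cenpf from 18, 19.0 and 20.9 to 17.5, 16.7 and 17.0 (-0.17, adjusted p = 0.038) and Cenpe from 18.8, 19.4 and 21.2 to 18.3, 17.5 and 17.6 (-0.14, adjusted p = 0.043). With length correction added to that fit, which called 16.1% of all genes, neither passed (Cenpf -0.03, adjusted p = 0.75, and Cenpe -0.07, adjusted p = 0.33, limma). Ube2c did not pass there either (0.19, adjusted p = 0.057), while Mki67, Cks2 and Cenpa did. With median-of-ratios scaling added instead, 13 genes of the set were higher, where 1968 of all 12459 genes were higher. Mki67 was the only lower gene of the set there, where 1224 of all 12459 genes were lower. Counted by separation alone, 15 genes were wholly higher and 4 wholly lower with CT-179, against 14.5% and 22.9% of all genes.

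The rest of the set lay between these at 24 h. Ccnb1 read 93.7, 90.8 and 94.0 with CT-179 (log2 fold change 0.11) and Plk1 93.1, 96.1 and 95.2 (0.07). Both were above all 3 vehicle libraries, without passing the test. Aurkb, the kinase of the chromosomal passenger complex, read 54.8, 53.6 and 55.6 in vehicle and 55.6, 56.0 and 54.3 with CT-179 (0.02). Its partner Birc5 (survivin) read 23.8, 22.3 and 22.9 against 24.1, 23.9 and 23.9 (0.06). Bub1, a checkpoint kinase, read 35.1, 35.5 and 37.2 against 37.3, 35.9 and 36.6 (0.03), and Tpx2, the activator of Aurora A, 60.0, 59.6 and 64.0 against 64.1, 64.5 and 63.6 (0.06). Kif11, the kinesin that pushes the spindle poles apart, read 28.0, 28.7 and 30.0 against 29.0, 27.7 and 29.2 (-0.01). Aurkb, Bub1, Tpx2 and Kif11 overlapped between the groups.

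**Figure D2:**
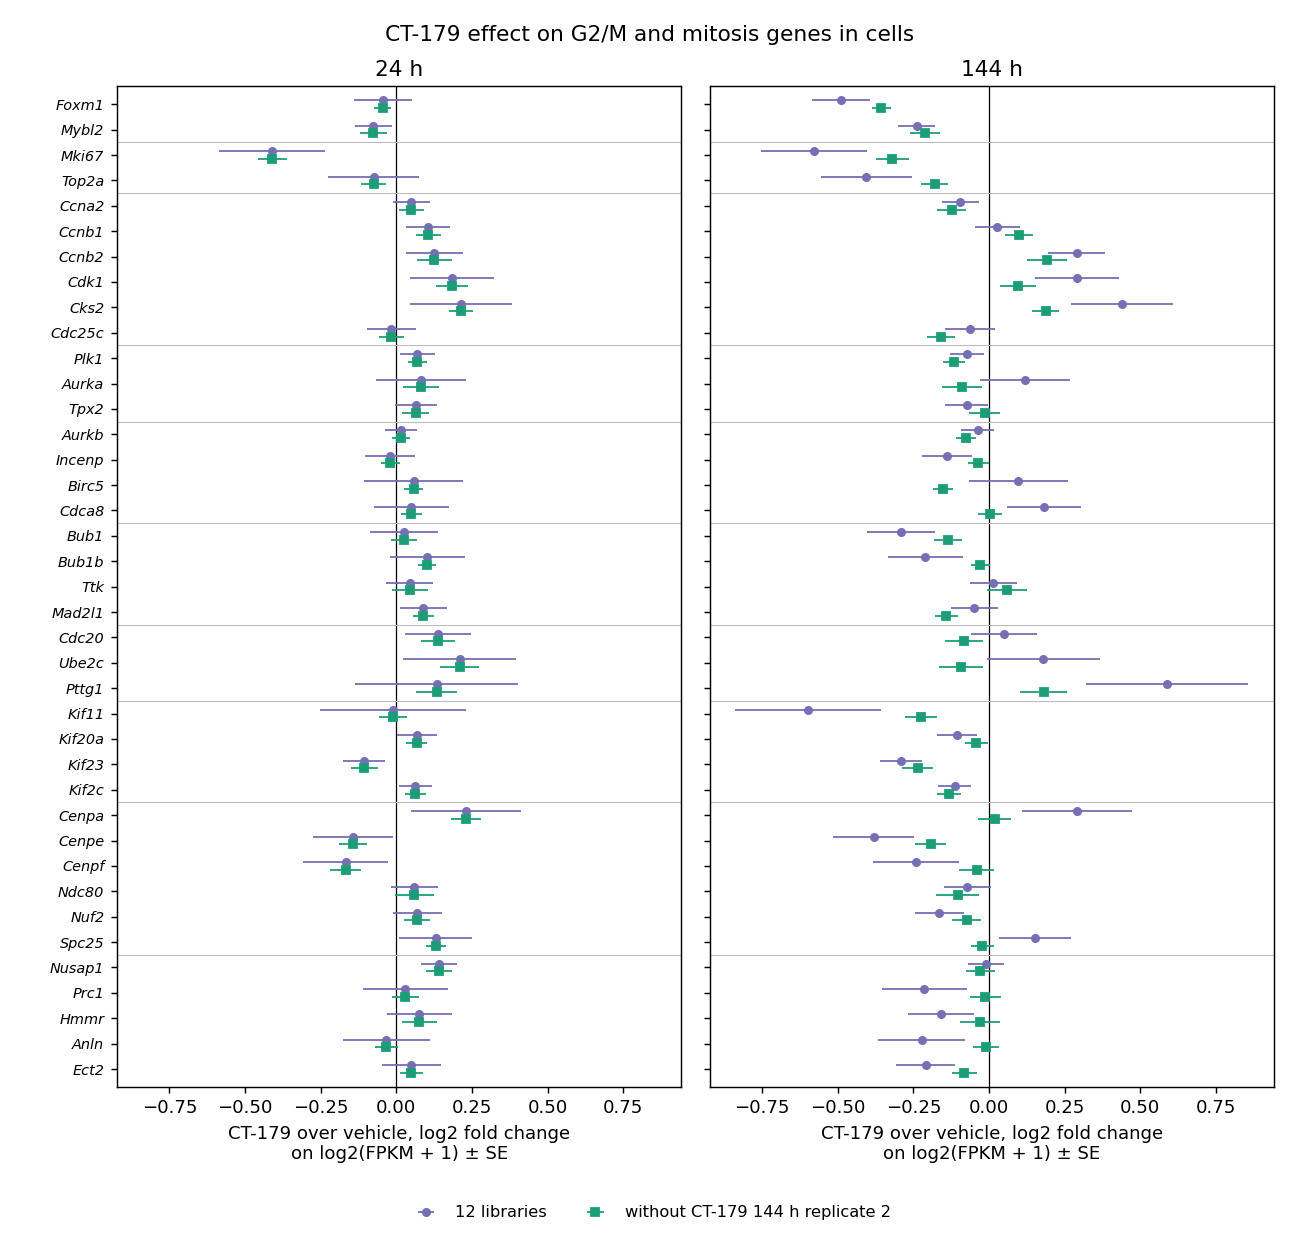
CT-179 over vehicle log2 fold change (x axis, on log2(FPKM + 1), with bars of ±1 SE) for each of the 39 genes at 24 h and at 144 h, from the fit of 12 libraries (circles) and without CT-179 replicate 2 at 144 h (squares). Mki67 stands lowest at 24 h at -0.41, and at 144 h Foxm1 is the gene of the set that lies furthest below 0 without that library, at -0.36.

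At 144 h, where the set had already fallen, CT-179 cells held less Foxm1 and Kif23 RNA. With all 12 libraries 2 of the 39 genes were lower and 0 higher, against 3.88% of all genes called, 0.512% higher and 3.37% lower, which leaves the share in the set near the background. Foxm1 read 3.50, 3.53 and 3.51 FPKM in vehicle and 2.56, 1.67 and 2.49 with CT-179. Every CT-179 library was below every vehicle library (log2 fold change -0.49, SE 0.10, limma adjusted p = 0.022). Kif23, the kinesin of the central spindle needed for cytokinesis, read 2.04, 1.93 and 2.12 against 1.67, 1.29 and 1.48 (-0.29, SE 0.07, adjusted p = 0.047), also without overlap. The call for Kif23 was lost when all libraries were corrected for transcript length (-0.06, limma adjusted p = 0.59) or scaled to TPM (-0.54, adjusted p = 0.064), under median-of-ratios scaling, with a replicate block, in a fit of 144 h alone, and when any library other than CT-179 replicate 1 or 2 at 144 h was left out. The call for Foxm1 was lost under TPM (-0.76, adjusted p = 0.057), when the 144 h libraries were fitted alone (adjusted p = 0.37) and when any vehicle library at 144 h was left out (adjusted p 0.092 to 0.10), with a fold change of -0.76 to -0.32 over the alternatives run.

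Without CT-179 replicate 2, 12 genes were lower and 2 higher at 144 h, where 28.7% of all genes were called, 16.9% lower and 11.8% higher. Foxm1 (-0.36, SE 0.03, limma adjusted p = 4.5e-05) was the largest change, followed by Mki67 (-0.32, adjusted p = 0.0017), Kif23 (-0.24), Kif11 (-0.22), Mybl2 (-0.21) and Cenpe (-0.19). The others that were lower were Top2a, Cdc25c, Birc5, Mad2l1, Kif2c and Plk1, at -0.18 to -0.12. Mki67 read 3.99, 3.99 and 4.59 in vehicle and 3.12, 1.42 and 3.19 with CT-179, where 1.42 is the library that stood apart. Mybl2 read 1.24, 1.19 and 1.38 against 0.923, 0.85 and 1.00, and Top2a 9.07, 9.06 and 9.74 against 8.03, 4.68 and 8.14. For these 3 genes the CT-179 libraries all lay below the vehicle libraries, with replicate 2 or without it. Cks2 and Ccnb2 (cyclin B2) were the 2 genes that were higher, both at 0.19 (adjusted p = 0.0093 and 0.048). Cks2 read 6.02, 6.75 and 6.66 in vehicle and 7.69, 13.4 and 7.33 with CT-179, and Ccnb2 2.76, 2.72 and 3.39 against 3.6, 4.53 and 3.42.

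With the length correction and without replicate 2, 8 genes remained lower, namely Foxm1 (-0.32, limma adjusted p = 7.6e-05), Mki67, Mybl2, Kif11, Kif23, Kif2c, Plk1 and Birc5, and 0 were higher. Over all genes 23.6% were called in that fit, 10.8% lower and 12.8% higher. Counted by separation, 3 genes were wholly higher and 11 wholly lower among the 3 libraries of each group, against 19.1% and 27.0% of all genes. Without replicate 2 these were 3 and 17, against 27.0% and 32.6%. Among the other G2/M genes, with all 12 libraries, Fam83d was higher (0.27) and Zw10 (-0.37), Espl1 (-0.34), the separase that securin holds back, and Troap (-0.26) were lower, 4 of 101. Of the 50 G1/S genes 1 passed. Without replicate 2, 6 of the 101 were higher and 27 lower, and 2 of the 50 were higher and 9 lower.

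Several genes changed side with replicate 2 at 144 h, among them Birc5 and Ube2c, while Mad2l1, Kif11 and Cdk1 changed in size. Replicate 2 was the highest CT-179 library for 19 of the 39 genes and the lowest for the other 20. The median exonic length was 3402 bases for the former and 5592.5 for the latter. Birc5 read 1.56, 1.60 and 1.63 in vehicle and 1.35, 2.92 and 1.32 with CT-179. Its log2 fold change was 0.10 with replicate 2 and -0.15 (limma adjusted p = 0.0081) without it. Mad2l1, which senses unattached kinetochores, read 2.28, 2.09 and 2.21 against 1.94, 2.51 and 1.85 (-0.05 with it, -0.14 without, adjusted p = 0.020). Kif11 read 2.89, 2.77 and 3.26 against 2.32, 0.564 and 2.47 (-0.60 with an SE of 0.24, and -0.22 without). Cdk1 read 4.32, 4.04 and 4.58 against 4.84, 7.51 and 4.52 (0.29 and 0.10), and Ube2c 4.67, 4.78 and 5.64 against 4.42, 8.93 and 4.88 (0.18 and -0.09). Neither of the last 2 genes passed in either fit.

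None of the remaining genes followed at 144 h passed with all 12 libraries. Plk1 read 4.75, 5.38 and 4.91 with CT-179 (log2 fold change -0.07, and -0.12 without replicate 2, where limma adjusted p = 0.033). Aurkb read 3.19, 3.53 and 3.18 (-0.04, and -0.07 without) and Ccnb1 5.11, 4.49 and 5.68 (0.03, and 0.10 without). All 3 overlapped vehicle, and without replicate 2 Plk1 and Aurkb did not. Cdc20 read 10.3, 8.97 and 8.96 in vehicle and 8.39, 11.9 and 9.23 with CT-179 (0.05, turning to -0.08 without replicate 2), and Tpx2 6.67, 6.55 and 7.58 against 6.84, 5.94 and 6.84 (-0.07, and -0.01 without). Bub1 read 2.32, 2.33 and 2.56 against 2.24, 1.24 and 1.95 (-0.29, limma adjusted p = 0.15, and -0.14 without replicate 2, adjusted p = 0.052), and Cenpe 1.86, 1.84 and 2.04 against 1.51, 0.722 and 1.59 (-0.38, adjusted p = 0.13, and -0.19 without, adjusted p = 0.016). Bub1 and Cenpe did not overlap between the groups, with replicate 2 or without it. Cenpf read 1.43, 1.41 and 1.62 against 1.41, 0.592 and 1.42 (-0.24, and -0.04 without), overlapping because CT-179 replicates 1 and 3 both lay above the lowest vehicle library.

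**Figure D3:**
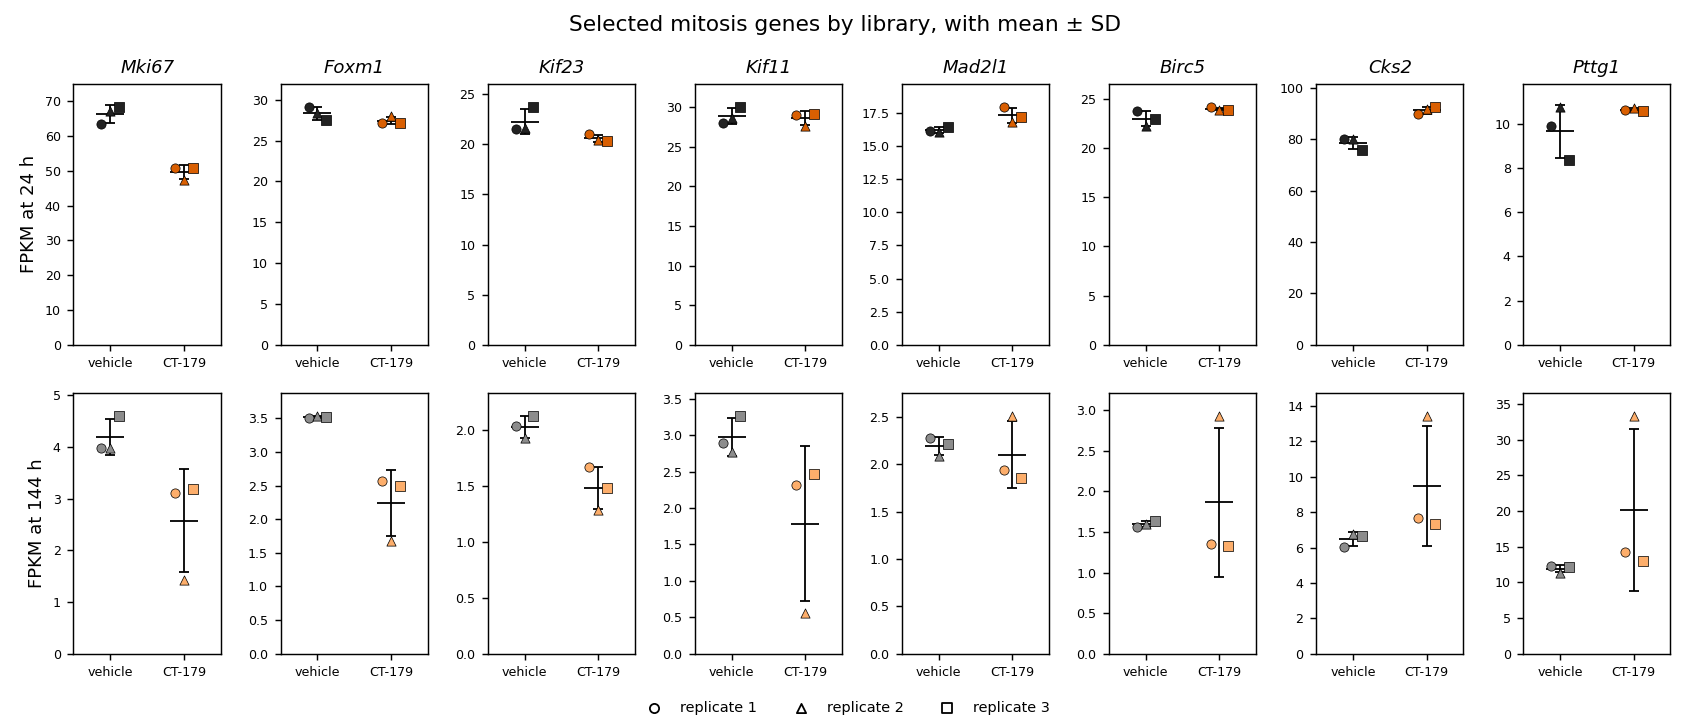
FPKM of 8 genes in each cell library (points, shaped by replicate) with the mean and SD of each group (bars), at 24 h above and at 144 h below, on separate y axes that start at 0. At 144 h the CT-179 triangle of replicate 2 lies away from its group, below it for Mki67, Foxm1, Kif23 and Kif11 and above it for Mad2l1, Birc5, Cks2 and Pttg1.

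In the cells, fold changes with CT-179 followed transcript length in the set as in the genome. Across the 39 genes the Spearman rho between exonic length and the log2 fold change was -0.62 at 24 h and -0.66 at 144 h, and across 11361 protein-coding genes it was -0.52 and -0.68. Without replicate 2 at 144 h it was -0.34 over the set and -0.44 over 11338 protein-coding genes. The 10 shortest genes, of 3402 bases or fewer, had a median log2 fold change with CT-179 of 0.13 after 24 h, and the 10 longest, of 6493 bases or more, of -0.05. At 144 h these medians were 0.14 and -0.27, and without replicate 2 they were -0.08 and -0.16. Cks2 at 692 bases, Mki67 at 10061 and Cenpf at 15433 lie near the ends of that range, whereas Foxm1 at 5754 bases lies near its middle. In brain the rho was 0.05 over the 28 genes tested and -0.40 over 12367 protein-coding genes. Without vehicle replicate 2 in brain it was -0.09 over 23 genes and -0.28 over 12277. The genes share libraries and one length scale, so these values are a description. The part of length in each result was not tested beyond the correction given above.

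**Figure D4:**
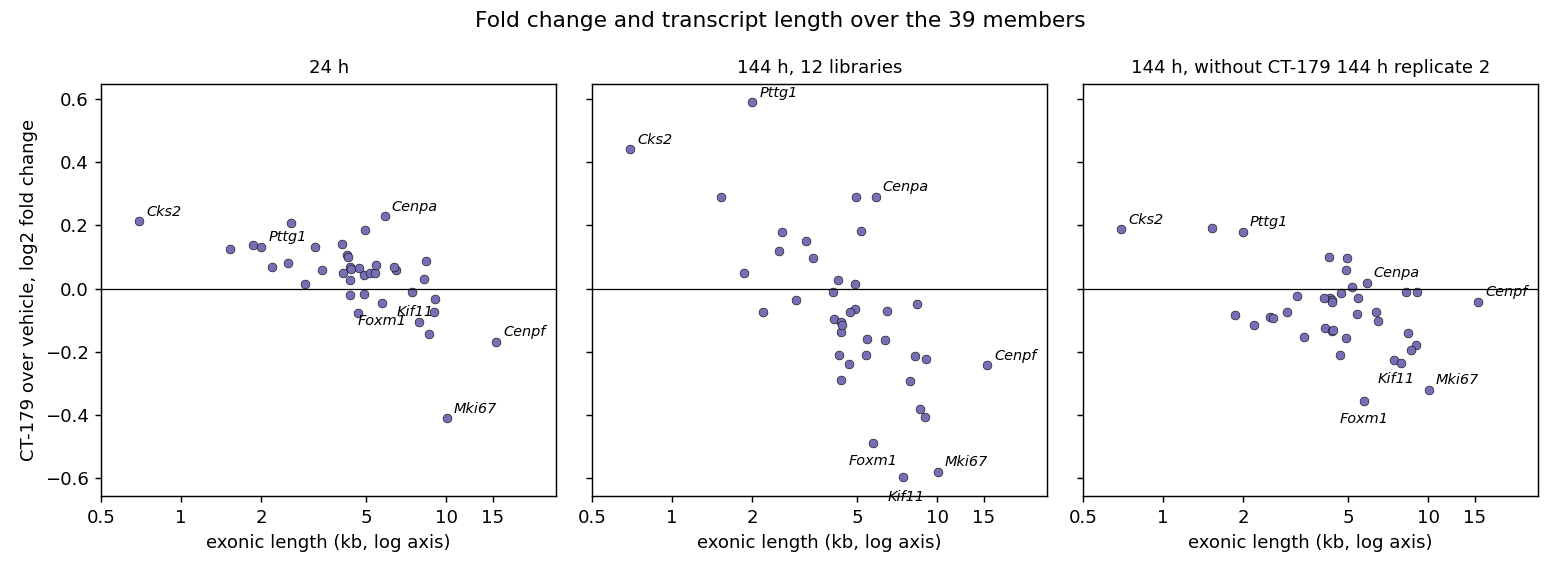
CT-179 over vehicle log2 fold change (y axis) against exonic length in kb (x axis, log scale) for the 39 genes, at 24 h, at 144 h with 12 libraries and at 144 h without CT-179 replicate 2. Points slope down from Cks2 to Mki67 in the first and second panels, less so in the third, where Foxm1 is lowest.

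Whether the CT-179 effect differed between the times was tested as a difference of differences. With all 12 libraries 0 of the 39 genes and 0.00% of all genes passed, the smallest adjusted p in the set was 0.69 (limma), and 2 genes of the set and 574 of all genes had an unadjusted p under 0.05. Without replicate 2 at 144 h, Foxm1 (-0.31, adjusted p = 0.0057), Mad2l1 (-0.23, adjusted p = 0.044) and Birc5 (-0.21, adjusted p = 0.040) were lower at 144 h relative to 24 h and 0 were higher, where 2.66% of all genes were called, 1.20% higher and 1.46% lower. For Foxm1 that is -0.04 at 24 h and -0.36 at 144 h. For Mki67, at -0.41 and -0.32, no difference was detected between the times (0.09, adjusted p = 0.59).

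In whole brain at day 15 the set was low, and no difference between CT-179 and vehicle was detected. The median over genes was 1.34 FPKM in vehicle and 1.22 with CT-179, and between 8 and 21 of the 39 genes lay under 1 FPKM in a library. None was at 0, and at the set's median exonic length of 4677 bases 1 FPKM stands for about 59 to 234 reads per brain library. The filter of at least 1 FPKM in 3 libraries kept 28 of the 39. Mybl2, Bub1, Ttk, Cdc25c, Kif11, Kif20a, Cenpe, Cenpf, Ndc80, Ect2 and Hmmr were not tested. Of the 28, 0 passed (0.00% of all 13422 genes tested), and 0 of the 28 and 490 of all genes had an unadjusted p under 0.05 (limma). All 39 overlapped between the groups, where 5.71% of all genes were wholly higher and 4.60% wholly lower. The median log2 fold change was -0.09 over 28 genes, with 24 below 0, and 0.04 over 23 genes, with 5 below 0, when vehicle replicate 2 was left out. In that fit 0 of the 23 passed, where 0.00754% of all genes did, and 0 of the 23 and 300 of all genes had an unadjusted p under 0.05. All 39 still overlapped, where 8.08% of all genes were wholly higher and 7.03% wholly lower. The direction of that median thus turned with 1 library.

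Levels varied within both groups. The summed level was 46.5, 89.5 and 79.7 FPKM in the vehicle brains and 60.0, 55.0 and 79.0 in the CT-179 brains. Vehicle replicate 1 was the lowest of the 6 libraries for 31 of the 39 genes and vehicle replicate 2 the highest for 24, and within CT-179 replicate 3 was the highest for 36. Mki67 read 1.12, 3.08 and 3.22 in vehicle and 1.84, 1.35 and 2.96 with CT-179. Foxm1 read 0.707, 1.20 and 1.32 against 0.728, 0.774 and 1.36, and Top2a 1.04, 2.83 and 2.55 against 1.35, 1.51 and 2.68. In all 3 the first vehicle library was the lowest of the 6. Granule precursor markers varied as well, with a median over markers of 6.99 to 12.0 FPKM in vehicle and 8.48 to 9.78 with CT-179, and Atoh1 read 0.321 to 1.41 and 0.426 to 1.18. Their part in the levels of the set was not tested.

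The order of genes in brain was not that of the cell line. Incenp, the scaffold of the passenger complex, was highest at 5.96 ± 1.46 FPKM in vehicle (SD, n = 3) and 5.55 ± 0.497 with CT-179, and Anln (anillin), a contractile ring protein that also supports myelin, was among the highest at 4.93 ± 0.742 and 5.40 ± 1.18. Anln ran against the others in vehicle, at 5.72, 4.84 and 4.24, where its highest value was in the library that was lowest for most of the set. Cdc20 read 2.98, 5.90 and 6.44 in vehicle and 4.27, 4.20 and 5.80 with CT-179, and Ccnb1 1.14, 2.63 and 1.90 against 1.51, 1.48 and 2.45. Cks2, for which 1 vehicle library read 7.87, stood at 3.13 and 4.09 in the other vehicle libraries and at 4.17, 3.58 and 3.52 with CT-179. None of these separated the groups. In the authors' deposited table, which gives vehicle over CT-179, every gene of the set had an FDR of 1, where 0.0873% of all genes in it had one under 0.05, with log2 fold changes from -0.389 (Cdc25c) to 0.356 (Nusap1).

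**Figure D5:**
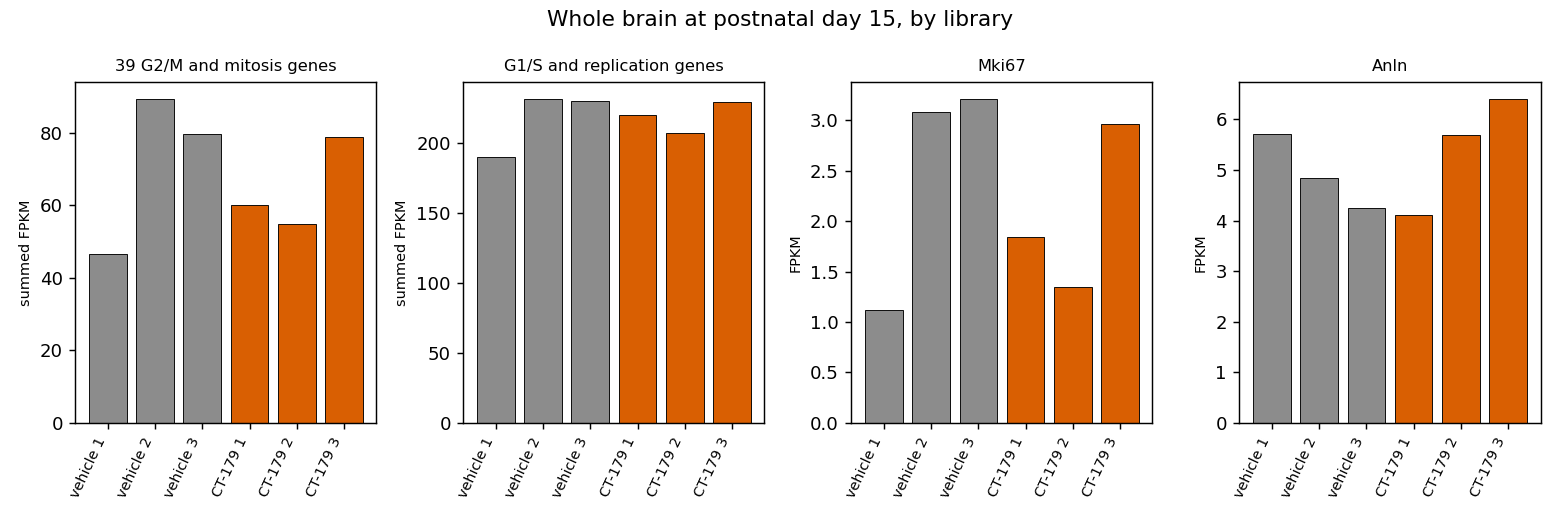
Level in each of the 6 brain libraries (1 bar per library, y axes from 0) as FPKM summed over the 39 genes, FPKM summed over the G1/S and replication genes, and FPKM of Mki67 and of Anln. Vehicle replicate 1 is lowest in the first 3 panels and not in that of Anln, and vehicle and CT-179 bars overlap in height in all of them.

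Some values carry a limit from shared sequence. Of the 39 genes 11 share exonic bases with another gene, and 5 share over 10% of their exonic length with a gene on the opposite strand, namely Kif20a with Cdc23 (29.3%), Ube2c with Tnnc2 (22.8%), Cdc25c with Gm3550 (12.7%), Ccna2 with Exosc9 (12.5%) and Prc1 with Rccd1 (11.1%). Whether reads were counted by strand is not given in the sources used here, so reads of these pairs cannot be told apart. Pseudogenes named Ccnb1-ps and Ccnb2-ps reached at most 0.670 and 0.0785 FPKM in a cell library, which leaves the split of reads with Ccnb1 and Ccnb2 uncertain. By the coordinates in the deposited tables (mm10), Foxm1 spans chr6:128362967-128376146, Mki67 chr7:135689784-135716361, Kif23 chr9:61915905-61946774 and Pttg1 chr11:43420250-43426251.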

How the data were processed

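RNA was sequenced as paired reads from 12 libraries of cells and 6 of whole brain. The submitters' processing notes name build mm10, the aligner STAR 2.6.0c, the trimmer Trim Galore 0.5.0, the counter HTSeq 0.6.1p2, and R 3.6 with edgeR 3.28.1; for their order, settings, annotation and use of strand the sources used here give nothing. Values were deposited by the authors as FPKM per gene, for cells and brain in separate tables. The low values step by whole reads for only 89.3 to 91.2% (cells) and 93.0 to 97.7% (brain) of values, within 0.1 read, so no count test was run. For brain the authors also deposited a table of log2 fold changes with p-values (FDR), whose values follow a comparison of vehicle replicates 1 and 3 with CT-179 replicates 1 to 3 (Pearson r across genes 0.99995) and which was only quoted. That table, per the file headers, also holds log2 CPM and a likelihood ratio statistic (a score), not used here.

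Genes that reached 1 FPKM in 3 or more libraries were tested with limma 3.58.1 (R 4.3.3, trend, two-sided) on log2(FPKM + 1), in 1 fit of 12 cell libraries and another of 6 brain libraries, with Benjamini-Hochberg adjustment over all genes tested and a threshold of 0.05. The pseudocount of 1 understates the change of low genes. The test was checked on simulated data with independent noise and 1 SD per gene. Those data held no library that stands apart and no noise shared between genes, so the check does not cover either. Exonic lengths came from the union of annotated exons, and the length correction subtracted a smooth curve of deviation on length (span 0.3) from each library. Alternatives were a pseudocount of 0.1, no filter, TPM and median-of-ratios scaling, a replicate block, array weights, length correction, separate fits per time and leaving out each library.

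Values are given in every library for a fixed list of genes that spans the roles, for those called with CT-179, for up to 6 with the largest change without the library that stands apart, and for the 5 largest and 5 smallest changes over time. The members and gene lists were chosen with earlier results of these data known. Replicates were numbered A to C or 1 to 3 in the labels. Deviations of same-numbered libraries correlated between the times in CT-179 cells (r 0.109, 0.241 and 0.138), and in no other comparison by the same rule. Replicate 3 at 24 h correlated there with replicate 1 at 144 h as well (r 0.153), and replicate 1 with replicate 3 (r 0.0983). Pairing by number was therefore not shown. For time in CT-179 cells a block left the calls of the 39 genes as they were (8169 calls over all genes became 8079).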

Additional observations from a re-analysis of the deposited data

Results flagged for a closer look

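Foxm1, Mad2l1 and Birc5 passed the test of the difference in CT-179 effect between the 2 times once CT-179 replicate 2 at 144 h was left out. In that fit 2.66% of all genes were called, 1.20% higher and 1.46% lower. The effect at 144 h minus that at 24 h was -0.31 for Foxm1 (limma adjusted p = 0.0057), -0.23 for Mad2l1 (adjusted p = 0.044) and -0.21 for Birc5 (adjusted p = 0.040), on the log2 scale and relative to vehicle at each time. With all 12 cell libraries the same differences were -0.44, -0.14 and 0.04, and none of the 3 passed, where 0.00% of all genes did.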

How the results depend on the processing

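Over the alternatives run, 301 of the set's counts and medians stayed (a count within 1.5 times, a median within the SD between replicate libraries) and 59 moved; among values of single genes 761 kept their call and sign, 58 gained a call, 24 lost it and 12 changed sign. For CT-179 at 24 h, with 0 genes called, the counts higher and lower were 9 and 3 with array weights, 8 and 1 in a separate fit, 13 and 1 when CT-179 replicate 2 of 144 h was left out and scaling was by median of ratios, 7 and 1 when it was left out under length correction, and 0 to 7 and 0 to 3 when single libraries were left out; the median was 0.0050 under TPM. At 144 h, with 0 higher and 2 lower, 1 was lower under TPM (Mybl2), 1 under median-of-ratios scaling and 1 with a replicate block (Foxm1 in both), 0 in a separate fit, 5 were higher and 17 lower with array weights, 3 and 9 when that library was left out under median-of-ratios scaling, 8 lower when it was left out under length correction, and 0 to 2 and 0 to 12 when single libraries were left out; the median was -0.26 under TPM, where the median of all genes shifted by -0.19, and -0.0068 with length correction. For the difference between times, 14 were lower with array weights, 3 without replicate 2 under either scaling or length correction, and 0 to 3 with single libraries left out; the median was -0.27 under TPM and -0.080 with length correction. There Birc5 (0.04) turned to -0.055 under TPM, -0.23 with array weights, -0.0031 with length correction, -0.21 without replicate 2 (single libraries left out, -0.21 to 0.17), and -0.23 and -0.22 when scaling or length correction was added. Mki67 (-0.17) turned to 0.091, 0.038, 0.091 (single libraries left out, -0.31 to 0.091), 0.076 and 0.088 under the same settings except TPM, and Mad2l1 (-0.14) to 0.036 with length correction; the cause was not tested. For time in vehicle the median was -3.47 with a pseudocount of 0.1, -3.31 under TPM and -3.23 with length correction with or without replicate 2, and -3.21 to -3.16 over single libraries left out; 1 gene, Pttg1, was higher with array weights and without replicate 2 under either addition, and 0 to 1 over single libraries. For time in CT-179 the median was -3.71, -3.55 and -3.33 with a pseudocount of 0.1, TPM and array weights, -3.33 and -3.36 without replicate 2 with scaling or length correction, and -3.31 to -3.20 over single libraries; 0 genes were higher with no filter and 0 to 1 over single libraries. Over all 12510 genes, array weights called 3319 at 24 h (1184 higher) and 5990 at 144 h (2673 higher). They called 1231 for the difference between times, and gave CT-179 replicate 2 at 144 h a weight of 0.0088. Separate fits called 1996 of 11486 genes at 24 h and 0 of 11958 at 144 h. Without replicate 2, median-of-ratios scaling called 3192 of 12459 genes at 24 h, 3846 at 144 h and 320 for the difference. Length correction there called 2005, 2935 and 394. In brain the median ran from -0.29 to 0.04 over single libraries left out. Pairing of same-numbered libraries by their deviations was not shown in any comparison. Outside the times in CT-179 their r was -0.13 to 0.06 in the cells and -0.39 to 0.11 in brain. The replicate block left 2 of 33 calls over all genes at 24 h and 301 of 486 at 144 h, and Kif23 lost its call with it (adjusted p = 0.074, limma). At the set's median exonic length 1 FPKM stands for 104 to 248 reads in cells and 59 to 234 in brain, and shorter or lower genes rest on fewer.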
